A study of Xenopus laevis with 8 samples.

Results

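*cnfn.1*, *gprc5cl2*, *raig4a* and *tspan1* encode proteins of the cell surface or of the outer layer of epithelia, and none is a known regulator of eye development. They were examined in *Xenopus laevis* animal caps made to express the eye field transcription factors (EFTFs). Every probe set whose annotated symbol, without the homoeolog ending .L or .S, is one of these 4 names was taken, which gave 8 of the 15491 *Xenopus* probe sets on the array, with 6 of its 7531 gene symbols. The genes were chosen by their large differences between EFTF and GFP caps on these same arrays. Those differences between the groups are therefore given as a description with a standard error and no test.

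Animal caps are the pluripotent ectoderm of the blastula, and caps left alone form epidermis. The EFTF group holds 4 arrays of caps whose embryos had received RNA for the paired-type factors *otx2*, *rax* and *pax6*, the homeobox factors *six3* and *six6*, the T-box factor *tbx3* and the nuclear receptor *nr2e1*. The control group holds 4 arrays of caps given only a fluorescent protein RNA, which the labels call GFP and the methods of the study Venus YFP. By the methods the EFTF group received that RNA too, and each array read a pool of caps grown to the equivalent of the neural plate stage (stage 15). The methods describe triplicates from different days and females, while the labels number the arrays of each group 1 to 4. The labels tie no array to a day or a female, so n counts arrays, and the p-values measure only the spread between them. GFP replicate 1 has a title that says GFP, by which it was grouped, and a source label that says EFTF. It read the injected factor *otx2.L* at 6.30, where the EFTF arrays had 9.21 to 9.73 and the other GFP arrays 5.53 to 6.06. Over all probe sets, however, its levels correlated more with EFTF replicate 1 (r = 0.983) than with the other GFP arrays (r = 0.961 to 0.977). EFTF replicate 1 itself correlated more with GFP replicates 2 and 3 (r = 0.967 and 0.969) than with EFTF replicates 3 and 4 (r = 0.962 and 0.943). The correlations therefore do not decide the label. For *six6.L* GFP replicate 1 read 4.68, the other GFP arrays 3.45 to 4.38 and the EFTF arrays 7.54 to 9.00. For *pitx1.L* these levels were 3.94, 3.13 to 3.47 and 7.42 to 9.09. At *otx2.L*, *six6.L* and *pitx1.L* GFP replicate 1 thus lay nearer the other GFP arrays. So it did at *rax.L*, with 2.98 beside 4.87 to 7.34 on the EFTF arrays. The brightest *pax6.L* probe set read 5.03 on it, beside 6.28 to 7.71 on the EFTF arrays. *otx2*, *six6*, *rax* and *pax6* were named by the injection, and at these probe sets the array read as its title says. However, these genes and *pitx1.L* are among the larger differences between the groups as titled. Whether the probe sets read the injected RNA was not examined, so these levels alone do not settle the label. The adhesion gene *ncam1.L* went the other way. It read 8.33 on GFP replicate 1, 6.60 to 7.22 on the other GFP arrays and 8.85 to 9.78 on the EFTF arrays. Without this array the log2 differences described here were 5.14 for *cnfn.1.L*, 4.74 for the brightest *gprc5cl2.S* probe set, 3.94 for *raig4a*, 2.36 for *tspan1.L* and 0.82 for *tspan1.S*. RNA came from whole caps, in which fewer cells of a type and less RNA per cell cannot be told apart.

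Cornifelin, the product of *cnfn* genes, is a small cysteine-rich protein with a PLAC8 domain that is found in the cornified envelope of mammalian skin, the protein shell of dying keratinocytes. *gprc5cl2* and *raig4a* belong to the GPRC5 or RAIG group of orphan G protein-coupled receptors, the founding member of which was found as a gene induced by retinoic acid in human cells. *tspan1* encodes a tetraspanin, a membrane protein that organises other surface proteins into clusters and that is found in mammalian epithelia. *X. laevis* is an allotetraploid, so most genes exist as a homoeologous pair, .L and .S. Cross-hybridisation between the copies was not examined. The RefSeq gene table (Xenopus_laevis_v10.1) lists RAIG4a among the synonyms of *gprc5cl2.S* and does not hold the gene ID that the array annotation gives for *raig4a*. Whether these names stand for separate genes, for homoeologs or for the same locus is therefore not settled, and *gprc5cl2.L*, which that table also lists, has no probe set named for it.

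Levels are log2 RMA intensities, which is the authors' background-corrected and normalized signal on the log2 scale. The background limit of an array was set by its brightest reading among 17 tag control probe sets, which are not directed at the frog, and lay between 2.90 and 3.18. Of the 8 probe sets, 6 read higher on every EFTF array than on any GFP array, a separation found in 5.42% of all probe sets, and 5 were at least 2-fold higher on average, as were 2.76% of all probe sets. These shares follow from how the genes were chosen and carry no further weight. The other 2 probe sets, both for *gprc5cl2.S*, lay near or below background in each group.

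**Figure D1:**
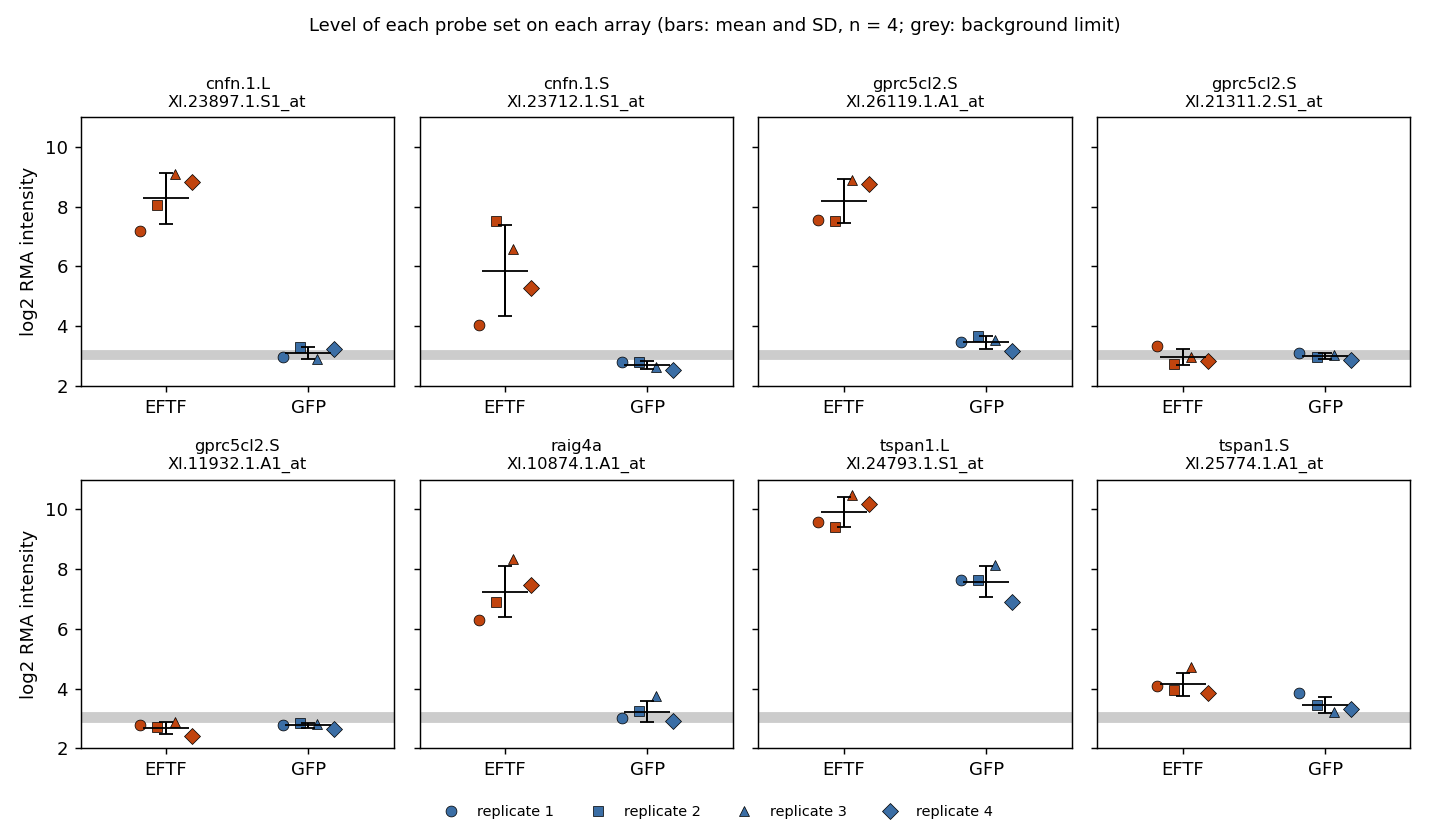
Log2 RMA intensity (vertical axis) of each of the 8 probe sets on the 4 EFTF and 4 GFP arrays, with a marker shape for each replicate number, bars for the mean and SD (n = 4) and a grey band for the range of the background limit over the arrays. *cnfn.1.L*, *cnfn.1.S*, the brightest *gprc5cl2.S* probe set and *raig4a* lie at or near the band in GFP caps and above it in EFTF caps, while *tspan1.L* is above it in both groups.

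The cornifelin gene *cnfn.1.L* showed the largest mean difference on the array (rank 1 of 15491 probe sets). It read 7.17, 8.06, 9.09 and 8.82 on EFTF replicates 1 to 4, against 2.98, 3.30, 2.90 and 3.24 on GFP replicates 1 to 4. All EFTF arrays were far above all GFP arrays, and the lowest EFTF value exceeded the highest GFP value by 3.87. EFTF caps averaged 8.29 ± 0.86 and GFP caps 3.11 ± 0.19 (SD, n = 4 each), with a log2 difference of 5.18 ± 0.38 (SE), or 36.2-fold. The GFP values sat at the background limit, with 3 of 4 arrays above it, so the transcript was barely detectable in control caps.

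Its homoeolog *cnfn.1.S* was the most variable of the probe sets. It read 4.04, 7.52, 6.59 and 5.28 on EFTF replicates 1 to 4, against 2.81, 2.79, 2.63 and 2.54 on GFP replicates 1 to 4. The EFTF arrays spanned 3.48 log2 units, yet each was above background, while none of the GFP arrays was. The means were 5.86 ± 1.52 in EFTF caps and 2.69 ± 0.13 in GFP caps (SD, n = 4). Because the GFP values are only an upper limit, the difference is given as at least 7.60-fold, computed against the background limit averaged over the GFP arrays. EFTF replicate 1 held the lowest value of both homoeologs. Without this array the fitted log2 difference of *cnfn.1.S* was 3.77, against 3.17 ± 0.66 (SE) with all arrays, and without EFTF replicate 2 it was 2.61, all fitted against GFP values below background. EFTF replicate 2 was the highest array for *cnfn.1.S*, whereas EFTF replicate 3 was the highest for *cnfn.1.L*, so the homoeologs did not follow the same order.

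The receptor gene *gprc5cl2.S* has 3 probe sets, which disagreed. The brightest ranked 2 of all probe sets by its mean difference and read 7.56, 7.54, 8.91 and 8.77 on EFTF replicates 1 to 4, against 3.48, 3.67, 3.52 and 3.17 on GFP replicates 1 to 4. EFTF replicates 3 and 4 were higher than replicates 1 and 2, and all of them were above the GFP arrays by 3.87 or more. The means were 8.20 ± 0.75 in EFTF caps and 3.46 ± 0.21 in GFP caps (SD, n = 4), which is 26.7-fold or 4.74 ± 0.34 on the log2 scale (SE). The other probe sets showed no such difference. The next brightest read 2.75 to 3.35 on EFTF arrays and 2.86 to 3.10 on GFP arrays, with a log2 difference of -0.014 ± 0.15 (SE), and it exceeded the background limit on 2 of the EFTF and 3 of the GFP arrays. The dimmest read 2.41 to 2.89 on EFTF arrays and 2.65 to 2.86 on GFP arrays, with a log2 difference of -0.075 ± 0.13 (SE), and it was below background on all 8 arrays. The groups overlapped for both. The annotation gives all 3 the same gene ID, and which part or form of the transcript each reads was not examined.

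The receptor gene *raig4a*, read by 1 probe set, gave a pattern like that of the brightest *gprc5cl2.S* probe set. It read 6.31, 6.89, 8.33 and 7.47 on EFTF replicates 1 to 4, against 3.01, 3.25, 3.74 and 2.93 on GFP replicates 1 to 4. EFTF replicate 3 was again the highest array, and no EFTF value came near the GFP values. EFTF caps averaged 7.25 ± 0.86 and GFP caps 3.23 ± 0.37 (SD, n = 4 each), with a log2 difference of 4.02 ± 0.41 (SE) or 16.2-fold, which ranked 9 of all probe sets. If *raig4a* is the gene that RefSeq lists as *gprc5cl2.S*, these readings are repeated measurements of the same transcript and not of separate genes.

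The tetraspanin gene *tspan1.L* differed from the others in that control caps already held it well above background. It read 9.59, 9.42, 10.48 and 10.17 on EFTF replicates 1 to 4, against 7.64, 7.63, 8.15 and 6.89 on GFP replicates 1 to 4. The groups did not overlap, and replicate 3 was the highest array in each. EFTF caps averaged 9.91 ± 0.49 and GFP caps 7.58 ± 0.52 (SD, n = 4 each), with a log2 difference of 2.34 ± 0.32 (SE) or 5.06-fold, rank 58 of all probe sets. Its homoeolog *tspan1.S* read 4.10, 3.95, 4.71 and 3.85 on EFTF replicates 1 to 4, against 3.84, 3.46, 3.22 and 3.33 on GFP replicates 1 to 4. It was above background on all arrays, but the lowest EFTF value exceeded the highest GFP value by only 0.0076. *tspan1.S* averaged 4.15 ± 0.38 in EFTF caps and 3.46 ± 0.27 in GFP caps (SD, n = 4 each), with a log2 difference of 0.69 ± 0.22 (SE), rank 941. The gap between the *tspan1* homoeologs, 2.34 for .L beside 0.69 for .S, was not tested, and RMA pulls dim values together, so the value of the dimmer .S probe set may understate its change. The *cnfn.1* homoeologs are not ranked, because the *cnfn.1.S* difference is only a lower bound.

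**Figure D2:**
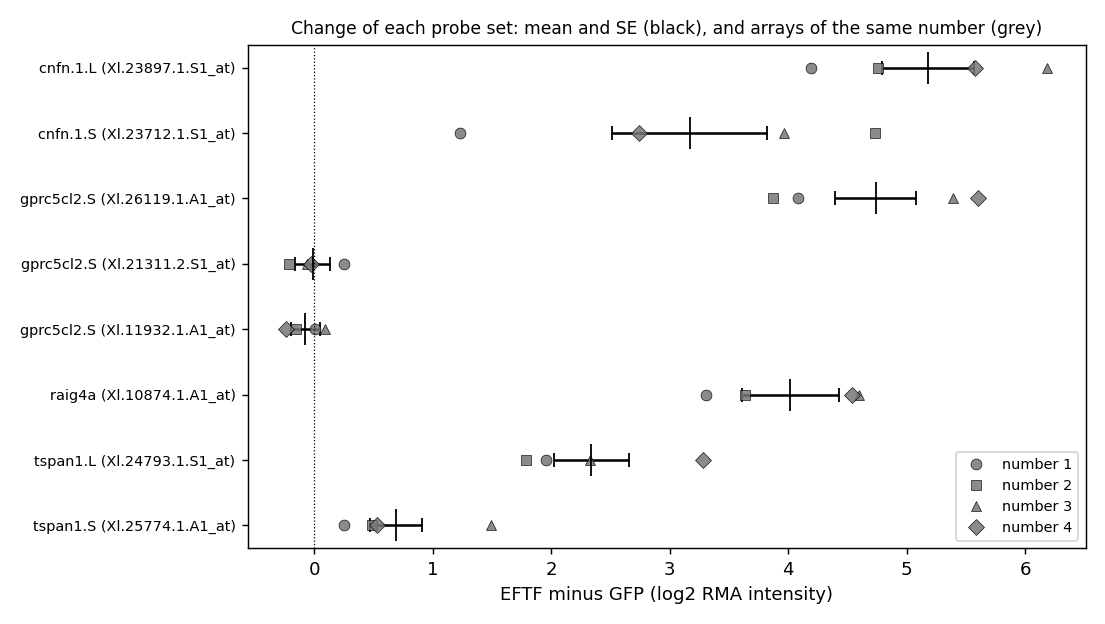
EFTF minus GFP difference in log2 RMA intensity (horizontal axis) for each probe set, with the mean and SE in black and, in grey, the difference between the EFTF and the GFP array of each replicate number. All 4 differences are above 0 for 6 probe sets, and they scatter around 0 for the dimmer *gprc5cl2.S* probe sets, while those of *cnfn.1.S* are drawn against GFP values below background.

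Arrays that share a replicate number deviated together, least clearly for number 3, and the difference was therefore also read number by number. For *cnfn.1.L* the EFTF array exceeded the GFP array of the same number by 4.19, 4.76, 6.19 and 5.57 for numbers 1 to 4. This placed it at ranks 2, 7, 2 and 4 among the 15491 differences of those numbers. Since the gene was chosen for its difference on these arrays, these ranks, like those of the other genes here, are a description and no check of stability. The brightest *gprc5cl2.S* probe set gave differences of 4.08, 3.87, 5.39 and 5.60 and ranks of 3, 13, 7 and 3. *raig4a* gave 3.31, 3.63, 4.59 and 4.54, at ranks 7, 18, 17 and 10. Both were larger for numbers 3 and 4 than for numbers 1 and 2. For *cnfn.1.S*, undetected on the GFP arrays, no difference is given by number. *tspan1.L* gave 1.95, 1.79, 2.33 and 3.28, with ranks between 38 and 154. Its largest difference, for number 4, goes with the lowest GFP value of this probe set. *tspan1.S* exceeded its GFP partner by 0.25 to 1.49, and its best rank was 488, for number 3.

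**Figure D3:**
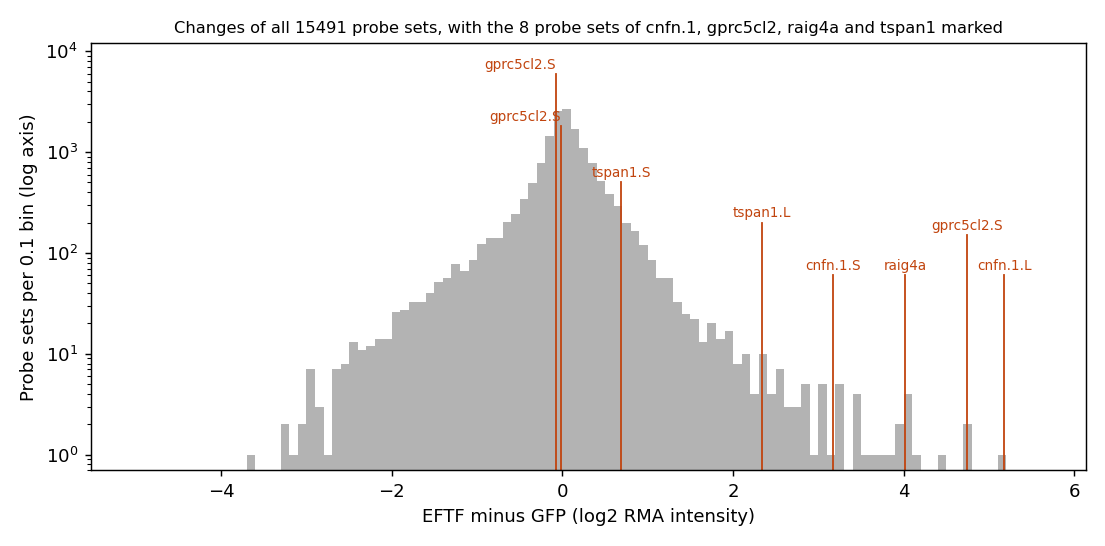
Number of probe sets (vertical log axis) by EFTF minus GFP difference in log2 RMA intensity (horizontal axis) for all 15491 probe sets, with lines at the 8 probe sets of *cnfn.1*, *gprc5cl2*, *raig4a* and *tspan1*. *cnfn.1.L* marks the upper end at 5.18 and the dimmer *gprc5cl2.S* probe sets stand in the middle of the distribution, while *cnfn.1.S* is drawn at its fitted value against GFP levels below background.

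The spread between EFTF arrays was large for several of these transcripts. The SD over the EFTF arrays exceeded that over the GFP arrays for 7 of the 8 probe sets, *tspan1.L* being the exception, as it did for 59.8% of all probe sets. Those 7 had GFP means of only 2.69 to 3.46, near or below background, where RMA pulls values together. *tspan1.L* averaged 7.58 in GFP caps. The count is therefore not read as a trait of these genes in EFTF caps. The median SD over all probe sets was 0.26 for EFTF and 0.22 for GFP arrays. Over the EFTF arrays *cnfn.1.L*, *cnfn.1.S*, *raig4a* and the brightest *gprc5cl2.S* probe set had SDs of 0.75 to 1.52. Genes of the lists below that limma called higher had SDs over these arrays from 0.15 (*dlx6.S*) to 1.53 (*hesx1.L*). A large spread is therefore not particular to the genes examined here. Among the 6 probe sets whose groups did not overlap, EFTF replicate 3 was the highest EFTF array for all except *cnfn.1.S*. EFTF replicate 1 was the lowest for *cnfn.1.L*, *cnfn.1.S* and *raig4a*. The injected factors varied over the same arrays. *six6.L* was lowest on EFTF replicate 1, at 7.54, and highest on EFTF replicate 4, at 9.00 against 8.77 on EFTF replicate 3. *otx2.L* was lowest on EFTF replicate 1, at 9.21, and highest on EFTF replicate 3, at 9.73. The order differed between factor genes. *rax.L* (7.34), *six3.L* (6.79) and *rax.S* (7.07) were also highest on EFTF replicate 3. In contrast, *pax6.L* (7.71) and *otx2.S* (6.31) were highest on EFTF replicate 4 and *six6.S* (5.06) on EFTF replicate 2. By the study's account the probe sets it used for *otx2*, *rax*, *six3* and *pax6* do not detect the injected RNA, which is not said of those for *six6*. The part of these factors in the order of the arrays was not tested.

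Median levels over all probe sets were 4.16 to 4.24 on EFTF arrays and 4.07 to 4.19 on GFP arrays, and between 72.4% and 83.4% of probe sets on an array exceeded its background limit. Of 12 injected factor genes limma called 4 higher in EFTF caps, beside 0.762% of all probe sets, and none lower. By log2 difference these were *six6.L* (4.40), *otx2.L* (3.48), *rax.L* (3.46) and *pax6.L* (2.32). The other 8 were not called, among them *otx2.S* (1.93) and *tbx3.L* (-0.55). The count of called factor genes was 5 with the replicate block, 1 by an equal-variance test and 6 without EFTF replicate 1. It was 2 within replicates 1 to 3 and 2 without EFTF replicate 3 or GFP replicate 2 or 3.

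The 10 transcripts whose levels followed these genes most closely over the 8 arrays included the known eye field genes *otx2.L*, *pax6.L* and *rax.L*, the neural gene *sox2.L* and the cement gland genes *ag1.S* and *agr2.L*. Likeness was measured as Pearson's r with the mean standardised level of *cnfn.1.L*, the brightest *gprc5cl2.S* probe set, *raig4a* and *tspan1.L*, among 266 other named probe sets at least 2-fold higher in EFTF caps. Since all of them differ between the groups in the same direction, r is high throughout, with a median of 0.84, and gives no evidence of a common control. The closest was *tle5.L*, which encodes a short Groucho-related co-regulator of transcription (r = 0.988), at 9.95 ± 0.54 in EFTF caps and 7.25 ± 0.38 in GFP caps (SD, n = 4). It was followed by *otx2.L* (r = 0.986), by *sox2.L*, a regulator of neural progenitors (r = 0.984), and by *ag1.S*, a secreted protein gene of the cement gland (r = 0.982). *pax6.L* (r = 0.982), the cement gland gene *agr2.L* (r = 0.982), *rax.L* (r = 0.976), the homeobox gene *dlx6.S* (r = 0.976), the Myc family gene *mycl.S* (r = 0.973) and *gcsh.L*, encoding a subunit of the glycine cleavage system (r = 0.972), completed the 10. Of these, *otx2*, *pax6* and *rax* were injected. By the study's account the probe sets it used for these genes do not detect the injected RNA. Whether the probe sets read here are the same was not examined. EFTF replicate 3 was the highest EFTF array for *tle5.L*, *otx2.L*, *ag1.S*, *pax6.L*, *agr2.L*, *rax.L*, *dlx6.S*, *mycl.S* and *gcsh.L*, and *sox2.L* was highest on EFTF replicate 4. The mean level used to pick the 10 is itself highest on EFTF replicate 3, so this order follows in part from the choice. The *pax6.L* probe set with the closest profile is not the brightest of that gene, which gave the 2.32 above and was highest on EFTF replicate 4, at 7.71 against 7.20 on EFTF replicate 3.

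**Figure D4:**
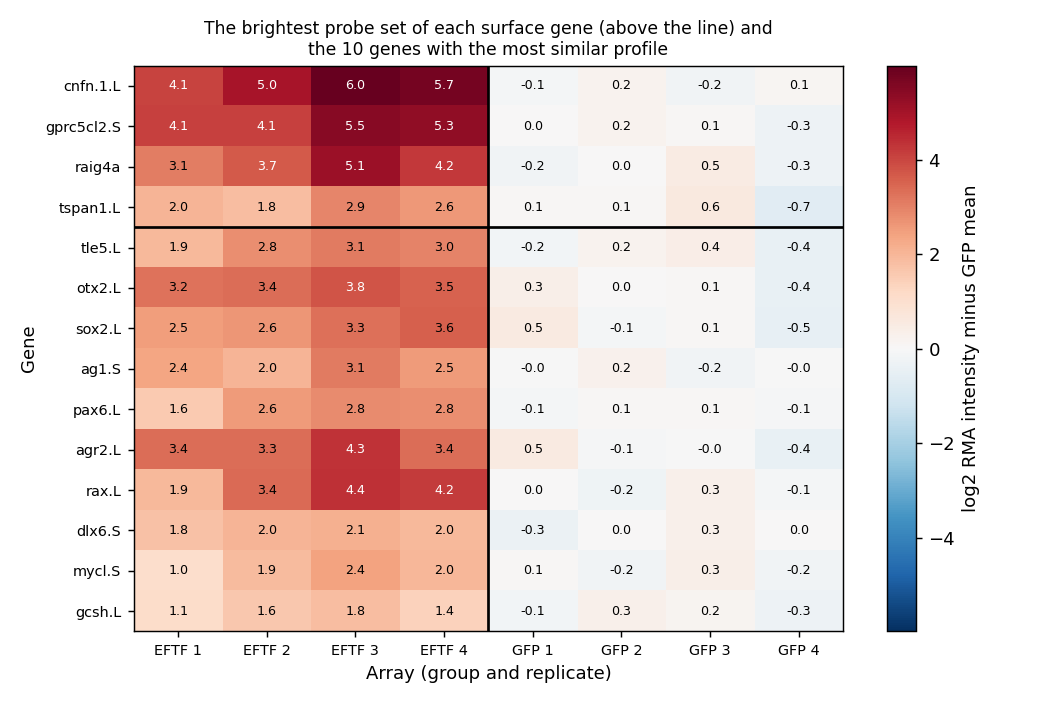
Log2 RMA intensity minus the GFP mean of the same probe set (colour and printed value) on each EFTF and GFP array (columns) for *cnfn.1.L*, *gprc5cl2.S*, *raig4a* and *tspan1.L* (above the line) and for the 10 genes with the closest profile (below it). Every EFTF value is positive, and column EFTF 3 holds the highest value of most rows, as does the profile by which the lower rows were picked.

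Relatives of these genes were also compared between EFTF and GFP caps. The comparison was made with limma over all 15491 probe sets with Benjamini-Hochberg adjustment, which called 1.42% of probe sets, 0.762% higher and 0.658% lower in EFTF caps, at an adjusted p under 0.05. With the replicate number as a block the shares were 4.91% and 5.25%. Each gene was represented by its brightest probe set, with homoeologs counted apart. Counts at an unadjusted p under 0.05, here and below, have no share over all probe sets beside them. They are a description only and show no excess or lack of differences in a list. Of 25 other tetraspanin genes none was called by limma in either direction, beside 1.42% of all probe sets. At that share few calls are to be found in a list of this size, so this is no lack of differences. At an unadjusted p under 0.05 limma gave 3 higher and 1 lower. The equal-variance test called none, and the replicate block called 2 higher, beside 4.91% of all probe sets. The median log2 difference was 0.044, beside 0.023 over all probe sets, and it was -0.024 with equal array medians. The genes called with the block were *tspan14.L*, a tetraspanin that in mammals brings the protease ADAM10 to the surface, and *cd82.L*, named after its values were seen. *tspan14.L* read 7.81 ± 0.38 in EFTF caps and 6.87 ± 0.18 in GFP caps (SD, n = 4 each), with a log2 difference of 0.95 ± 0.20 (SE, limma adjusted p = 0.059, blocked adjusted p = 0.034). *cd82.L* gave 0.82 ± 0.23 (adjusted p = 0.118, blocked adjusted p = 0.0378). Its homoeolog *cd82.S* gave the largest negative difference of the family, -1.04 ± 0.26 (adjusted p = 0.0859, blocked adjusted p = 0.051). Without EFTF replicate 1, 2 tetraspanin genes were called higher. The uroplakin genes *upk1a.S*, *upk1b.L* and *upk1b.S*, tetraspanins of the apical surface of urothelium in mammals, gave log2 differences of -0.27, -0.49 and 0.19, none of them called by limma or with the block.

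The other GPRC5 receptors on the array were *gprc5a.S* and *gprc5b.L*. *gprc5a.S* read 4.14 ± 0.21 in EFTF caps and 4.01 ± 0.17 in GFP caps (SD, n = 4 each), with a log2 difference of 0.13 ± 0.14 (SE, adjusted p = 0.735). *gprc5b.L* read 3.65 ± 0.72 in EFTF caps and 3.53 ± 0.36 in GFP caps, a difference of 0.12 ± 0.35 (adjusted p = 0.919). Neither passed at an unadjusted p under 0.05 in limma, with the block or in the equal-variance test. No other member of the cornifelin and PLAC8 family was named on the array.

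Because the first GPRC5 receptor was found in human cells as a retinoic acid response gene, 18 genes for its synthesis, breakdown, carriers and receptors were listed. None was called by limma or by the equal-variance test. At an unadjusted p under 0.05 limma gave 4 higher and 1 lower, and the replicate block called 2 higher and none lower. Their median log2 difference was 0.028, or -0.040 with equal array medians. However, 4 of the 18 were below background on all 8 arrays. Over the 13 genes above background on at least 4 arrays the median was 0.35, with none called. The filter admitted *aldh1a2.L* through its EFTF arrays alone. It can therefore raise the median, and no rise of the list is read from this value. The genes called with the block were *cyp26c1.S*, which encodes an enzyme that breaks down retinoic acid, and *aldh1a2.L*, which encodes an enzyme that makes it. *cyp26c1.S* read 5.03 ± 0.95 in EFTF caps and 3.40 ± 0.091 in GFP caps (SD, n = 4), with a log2 difference of 1.63 ± 0.41 (SE, adjusted p = 0.0914, blocked adjusted p = 0.0467). *aldh1a2.L* was below background on all GFP arrays and at least 1.49-fold higher in EFTF caps (adjusted p = 0.0853, blocked adjusted p = 0.0316). Without EFTF replicate 1, limma called 2 genes of the list higher. The receptor gene *rarg.S* gave -0.25 ± 0.27 (adjusted p = 0.732).

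**Figure D5:**
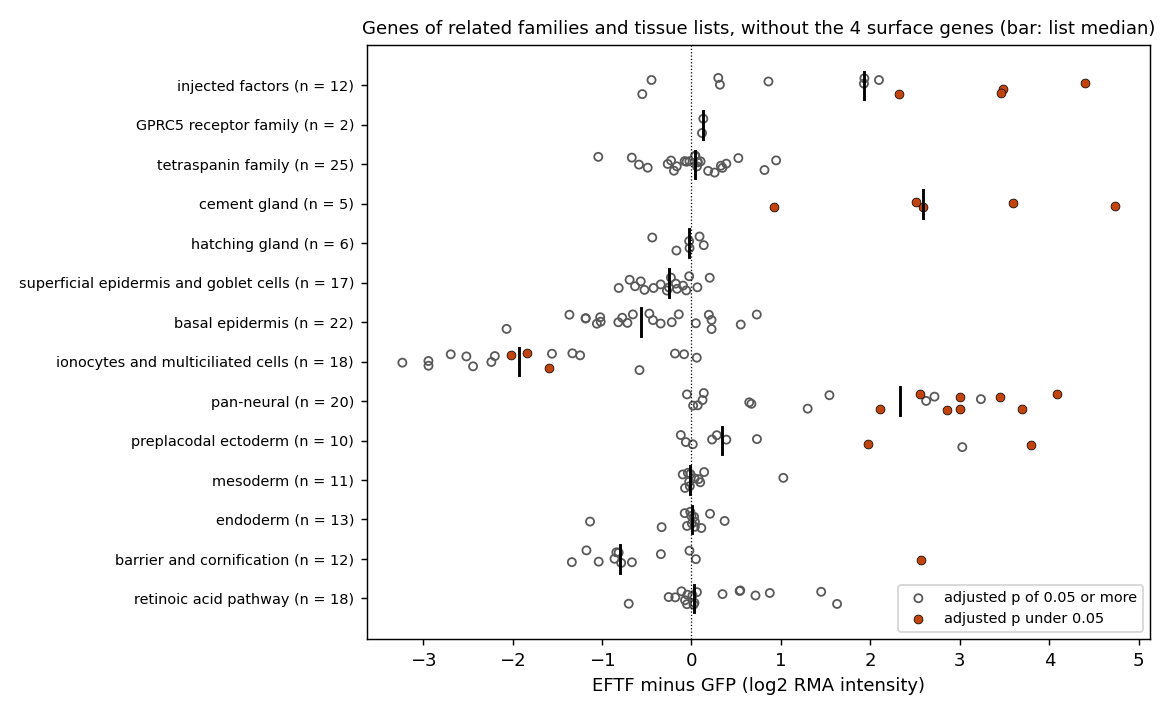
EFTF minus GFP difference in log2 RMA intensity (horizontal axis) of each gene in the related families and tissue lists, without *cnfn.1*, *gprc5cl2*, *raig4a* and *tspan1*. Filled points passed limma at an adjusted p under 0.05 and bars mark list medians. The cement gland median is 2.59 and the tetraspanin median 0.044.

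Since *cnfn.1* and *tspan1* are known from epithelia, markers of the cell types that caps can form were set beside them. All 5 measured genes of the cement gland, a mucus-secreting organ of the anterior ectoderm, were called higher (list median 2.59), beside 0.762% of all probe sets. In this list *ag1* and *agr2* each count as both homoeologs, so the 5 are not separate loci. *pitx1.L*, its homeobox regulator, rose by 4.73 ± 0.34 (SE, adjusted p = 0.00254). The secreted protein genes *agr2.L*, *ag1.L*, *ag1.S* and *agr2.S* rose by 3.59, 2.59, 2.50 and 0.92. The summed linear intensity of the list was 6076 to 10837 on EFTF arrays and 1347 to 1941 on GFP arrays. The count was 5 with the block, 4 without GFP replicate 2 or 3, and 3 without EFTF replicate 2, 3 or 4 or GFP replicate 4. With a pseudocount of 16 it was 4, and within replicates 1 to 3 it was 2. Pan-neural genes were called higher in 8 of 20 cases, beside 0.762% of all probe sets, and lower in none (median 2.33). The cadherin genes *cdh2.L* and *cdh2.S*, the SoxB1 genes *sox3.S* and *sox2.L*, the RNA-binding protein genes *msi1.L* and *msi1.S* and the adhesion genes *ncam1.S* and *ncam1.L* rose, with log2 differences of up to 4.08 for *cdh2.L* and of 3.00 for *sox2.L*. The pan-neural count was 3 without EFTF replicate 2 or GFP replicate 2 or 3, and 4 without EFTF replicate 3 or 4 or GFP replicate 4. With a pseudocount of 16 it was 4, and within replicates 1 to 3 it was 2. Summed intensities of this list were 5444 to 9636 on EFTF arrays and 1229 to 2837 on GFP arrays. The equal-variance test called none of the cement gland or pan-neural genes, although 5 and 13 of them were higher at an unadjusted p under 0.05. How far either tissue carries the *cnfn.1*, *gprc5cl2*, *raig4a* or *tspan1* signal was not tested.

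The epidermal lists differed in their calls. Of 17 genes of the superficial epidermis and its mucus cells none was called by limma, with none higher and 4 lower at an unadjusted p under 0.05, none called by the equal-variance test and 1 lower with the block or without EFTF replicate 1. Their median log2 difference was -0.25, and their summed intensity was 19531 to 29128 on EFTF arrays and 28027 to 31939 on GFP arrays. Among genes of the epithelial barrier and cornification, where cornifelin acts in mammals, 1 of 12 was called higher, beside 0.762% of all probe sets. None was called lower, and the median was -0.80. The one that rose was the keratin gene *krt19.S*, by 2.56 ± 0.44 (SE, adjusted p = 0.0377). It was not called by the equal-variance test, within replicates 1 to 3 or with a pseudocount of 16. Nor was it called without EFTF replicate 2, 3 or 4 or GFP replicate 2, 3 or 4. Its homoeolog *krt19.L* read 8.43 ± 1.36 in EFTF caps and 9.29 ± 0.63 in GFP caps (SD, n = 4 each). With a log2 difference of -0.86 ± 0.65 (SE, adjusted p = 0.582), *krt19.L* did not share the rise. The block called 5 of the 12 lower, beside 5.25% of all probe sets. Among them were the desmoplakin genes *dsp.L* (-1.34 ± 0.33, adjusted p = 0.0858, blocked adjusted p = 0.0452) and *dsp.S* (-1.17 ± 0.28, adjusted p = 0.0808, blocked adjusted p = 0.0315), of the desmosome. Another was *ppl.L* (-1.04 ± 0.32, adjusted p = 0.146, blocked adjusted p = 0.0348), which encodes periplakin of the cornified envelope. These were named after their values were seen. Without EFTF replicate 1, limma called 1 of the 12 lower. In the basal epidermis list of 22 genes limma called none (1 higher and 4 lower at an unadjusted p under 0.05, none by the equal-variance test). The block called 1 higher and 1 lower. Without EFTF replicate 1, 1 was called lower. The median of this list was -0.56, but -0.16 without GFP replicate 4 and -0.20 within replicates 1 to 3. Without EFTF replicate 4 it was -0.51, so its size depended on GFP replicate 4. Among ionocyte and multiciliated cell genes 3 of 18 fell (median -1.93), beside 0.658% of all probe sets. They were the cilium gene *tekt1.L* (-1.59) and the ionocyte regulators *foxi1.L* (-2.02) and *ubp1.L* (-1.84). The count was 12 with the block, 6 without EFTF replicate 1, 1 without EFTF replicate 2 and none without any other array, by the equal-variance test, within replicates 1 to 3 or with a pseudocount of 16.

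Hatching gland genes, which mark another anterior ectodermal organ, gave a median of -0.024. Of 6 genes none was called by limma or the equal-variance test, 1 was lower at an unadjusted p under 0.05 and 1 was lower with the block. However, 1 of the 6 was below background on all 8 arrays, and only 4 were above it on at least 4 arrays. Dim signal therefore limits what this median can show. Of 10 preplacodal genes limma called 2 higher, beside 0.762% of all probe sets (list median 0.34). They were the homeobox genes *hesx1.L*, by 3.80, and *dlx6.S*, by 1.97. The study also lists *hesx1* among genes enriched in the eye field. The others ran from -0.12 for *pax8.L* to 3.03 for *hesx1.S*, with -0.063 for *eya1.L*. Of the 10, 1 was below background on all 8 arrays, and only 7 were above it on at least 4 arrays. The block called 4 of the 10, the equal-variance test none, and limma called 1 without EFTF replicate 2 or 3 or any of the GFP replicates. Mesoderm (11 genes, median -0.012) and endoderm (13 genes, median 0.0035) had none called by limma, by the equal-variance test or with the block, with 1 endoderm gene lower at an unadjusted p under 0.05. Without EFTF replicate 4, 1 mesoderm gene was called higher, and 4 mesoderm and 6 endoderm genes were below background on all 8 arrays.

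Position in the genome was examined for the 5 symbols that the RefSeq table places. Of 50 protein-coding genes within 5 places of them on either side, 6 were measured. None of these was called by limma or the equal-variance test, 1 was lower at an unadjusted p under 0.05 and 1 was lower with the block. Their log2 differences ran from -0.98 for *atp6v0b.L*, a proton pump gene near *tspan1.L*, to 0.28 for *pafah1b3.S*, near *cnfn.1.S*. *pik3r3.S*, next to *tspan1.S*, differed by 0.071 ± 0.19 (SE, adjusted p = 0.907).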

How the data were processed

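Animal cap RNA was hybridised to Affymetrix *X. laevis* arrays, 4 EFTF and 4 GFP, grouped by sample title. The deposited values are intensity on a linear scale, which the authors made with RMA (version not given). Whether they include the scaling in GeneSpring that the methods mention is not stated. They were converted to log2 with no pseudocount. Of 15611 probe sets, 120 controls were left out. An annotation table gave 1 symbol for 9304 probe sets.

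EFTF and GFP arrays were fitted with lmFit and eBayes of limma 3.58.1 (R 4.3.3, two-sided), and Benjamini-Hochberg adjusted p-values under 0.05 over the 15491 probe sets were called. On simulated data it recovered 19% of log2 changes of 1 and 65% of changes of 2, of 100 each, with 4 false calls. The simulated noise was normal and independent between arrays, and changes were placed only in probe sets brighter than the median. These rates therefore need not hold for the arrays here or for dim probe sets.

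Deviations from the group means correlated between arrays with the same number in their titles (r = 0.44, 0.60, 0.22 and 0.64 for numbers 1 to 4, across probe sets). Between arrays of different numbers r ran from -0.45 to 0.28. The highest of these, for EFTF replicate 2 and GFP replicate 3, exceeded the value for number 3. The numbers were taken to pair the arrays, which is least clear for number 3. The labels do not say what a number stands for. The fit without a block is the main one reported, and it leaves this pairing out. The fit with the block called 1575 probe sets in place of 220.

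The genes and the 15 lists were chosen with earlier results of these data known. The genes named are the 4 surface genes, the 10 closest in profile, the called list members and those with the largest difference in the related families. Homoeologs or families of interest outside this rule were named after their values were seen. No sequence was analysed here. Alternatives covered scaling, filter, variance model, pseudocount, block and each array left out. The smallest differences of dim probe sets are limited by background, and the number of arrays limits the precision.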

Additional observations from a re-analysis of the deposited data

How the results depend on the processing

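The replicate block, dim filter, intensity trend, equal-variance and batch block settings leave a mean difference as it is by construction, and the genes were chosen for a positive one, so its sign is no sign of stability. With a pseudocount of 16 the mean differences were 3.74, 1.82, 3.52, 2.74 and 0.33 for *cnfn.1.L*, *cnfn.1.S*, *gprc5cl2.S* (brightest probe set), *raig4a* and *tspan1.S*, because the added value damps dim signals. When each array was left out in turn they ran from 4.91 to 5.55 for *cnfn.1.L*, 2.61 to 3.77 for *cnfn.1.S*, 4.50 to 4.96 for *gprc5cl2.S*, 3.66 to 4.33 for *raig4a*, 2.11 to 2.53 for *tspan1.L* and 0.50 to 0.82 for *tspan1.S*. The dimmer *gprc5cl2.S* probe sets ran from -0.14 to 0.062 and from -0.14 to 0.020.

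Calls over all probe sets numbered 220 (118 higher, 102 lower) and those among the 191 list genes 23. The numbers were 1575 and 50 with the replicate block, 2 and 1 by the equal-variance test, 18 and 7 within replicates 1 to 3, 92 and 12 with the pseudocount, and 754 over all probe sets with replicate 4 as a batch block. With equal array medians the split was 124 higher and 170 lower. Without 1 array the calls over all probe sets ran from 25 (GFP replicate 3) to 702 (EFTF replicate 1), with 84, 46 and 68 without EFTF replicates 2, 3 and 4 and 121, 26 and 81 without GFP replicates 1, 2 and 4, and those among the list genes from 10 (EFTF replicate 3, GFP replicate 2 or 3) to 40 (EFTF replicate 1), with 11 without EFTF replicate 2 or GFP replicate 4 and 13 without EFTF replicate 4. The causes were not tested. Signal near background limits what can be said of *cnfn.1* and the receptors in GFP caps.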
